A study of Mus musculus with 20 samples.

Results

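The genes described here are 44 genes of the cell division cycle, chosen by name for their textbook roles, with earlier results of these data known. They were matched by symbol in the deposited table of raw counts. All 44 were found among its 22090 rows, and all 44 passed the filter on low counts in each comparison. Of these, 28 act in mitosis or mark dividing cells, 11 act in DNA replication, 2 are cyclins of the G1/S step and 3 are transcription factors of the cycle. The libraries came from the skin of female SKH-1 mice, a hairless strain that forms skin tumors under ultraviolet radiation. The mice were aged 7 months when they were divided into groups. By the study's methods, tissue was taken only after the weeks of irradiation, so the mice were older by then. By the labels, 4 mice were irradiated daily and 4 were not, while the study's methods give a schedule that was not daily. The groups were 8 samples of normal skin (NS), 8 of actinic keratosis (AK), a precancerous lesion, and 4 of cutaneous squamous cell carcinoma (cSCC). Each unirradiated mouse gave a piece of normal skin. By the study's methods, each irradiated mouse gave a piece of normal skin, AK lesions of grade 1 and grade 2, and a cSCC. NS therefore mixes irradiated with unirradiated animals, AK mixes grades, and every lesion came from 1 of 4 mice. The labels do not give the grade of an AK sample. The labels do not tie a sample to its mouse, so the 8 AK stand for 4 animals, all fits treat samples as independent, and p-values measure the spread between samples.

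A cell copies its DNA once and then divides it between daughters. Replication starts where Cdc6 and Cdt1 load the MCM helicase, and cyclin E brings cells into this step. Mitosis follows when cyclins A and B activate Cdk1, kinases such as Plk1 and Aurora A build the spindle, and Cdc20 and Ube2c let the anaphase-promoting complex destroy the cyclins. In skin, dividing cells lie mainly in the basal layer of the epidermis and in growing hair follicles, and Mki67 is the marker by which pathologists count dividing cells in lesions.

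Replication genes and mitosis genes are known to peak at different times and to carry different promoter elements, E2F sites in the first and a CHR element with CCAAT boxes in the second. Promoter windows of 300 bases, from 250 before to 50 after the annotated start, were taken from RefSeq (GRCm38.p6) for 36 of the 44 members. No window was at hand for Aurkb, Ccna2, Ccne2, Foxm1, Gins2, Kif20a, Mcm4 or Tpx2. The letters searched on both strands were TTTGAA for CHR, with TTCGAA as its variant form, and CCAAT for the CCAAT box. For E2F the letters were TTGGCGC in the first form. A further form searched for was TTCGCGC too. The last form searched was TTCCCGC here. A match is a description of the letters only. An E2F match can share letters with its own reverse or with a CCAAT box, and each was then counted. Among mitosis members 18 of 24 windows (75.0%) held a CHR, against 19.2% of the 32851 windows of all genes, and 17 (70.8%) held both a CHR and a CCAAT box, against 7.52%. E2F letters stood in 6 of 9 replication members (66.7%) and 4 of 24 mitosis members (16.7%), against 8.07% of all windows. The windows of Ccne1, E2f1 and Mybl2 held no match of the 3 motifs. Both CHR and CCAAT box stood in 5 of 5 mitosis members that passed the test for cSCC against NS, and in 12 of the other 19.

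These 4 windows show the contrast, with matches in capitals, where a match on the other strand appears as its reverse complement. Cdc20 (chr4:118437294-118437593, minus strand) had the lowest adjusted p of the mitosis members whose window holds both elements. Its CHR begins 18 bases before the start, between CCAAT boxes that begin 53 and 8 bases before it. Birc5 (chr11:117848987-117849286, plus strand) holds neither. Mcm3 (chr1:20820263-20820562, minus strand) is a replication member with E2F letters, which begin 19, 39 and 42 bases after the start, and Pcna (chr2:132253131-132253430, minus strand) holds none of them and 1 CCAAT box.
Cdc20: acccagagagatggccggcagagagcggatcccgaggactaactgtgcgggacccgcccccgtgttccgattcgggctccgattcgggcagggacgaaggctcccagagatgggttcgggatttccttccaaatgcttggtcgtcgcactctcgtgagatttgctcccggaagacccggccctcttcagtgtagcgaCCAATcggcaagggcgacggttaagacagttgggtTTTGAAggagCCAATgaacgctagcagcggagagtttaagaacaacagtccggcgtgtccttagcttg
Birc5: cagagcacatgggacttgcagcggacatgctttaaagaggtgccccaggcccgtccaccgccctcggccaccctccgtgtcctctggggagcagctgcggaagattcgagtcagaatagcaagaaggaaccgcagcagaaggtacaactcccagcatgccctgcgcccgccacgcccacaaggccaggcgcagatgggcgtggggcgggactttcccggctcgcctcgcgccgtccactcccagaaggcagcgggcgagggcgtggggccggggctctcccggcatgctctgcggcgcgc
Mcm3: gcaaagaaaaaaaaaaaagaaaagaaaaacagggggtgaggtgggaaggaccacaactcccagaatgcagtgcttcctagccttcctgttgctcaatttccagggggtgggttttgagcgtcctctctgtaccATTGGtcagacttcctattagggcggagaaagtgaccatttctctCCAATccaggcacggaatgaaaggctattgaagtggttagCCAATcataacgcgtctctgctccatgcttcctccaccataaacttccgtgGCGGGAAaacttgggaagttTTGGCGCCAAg
Pcna: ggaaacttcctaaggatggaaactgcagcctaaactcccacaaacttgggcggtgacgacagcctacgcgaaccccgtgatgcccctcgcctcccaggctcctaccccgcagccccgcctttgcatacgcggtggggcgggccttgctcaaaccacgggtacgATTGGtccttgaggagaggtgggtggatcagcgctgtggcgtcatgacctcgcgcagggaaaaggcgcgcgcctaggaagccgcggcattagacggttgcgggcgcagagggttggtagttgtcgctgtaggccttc

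**Figure D1:**
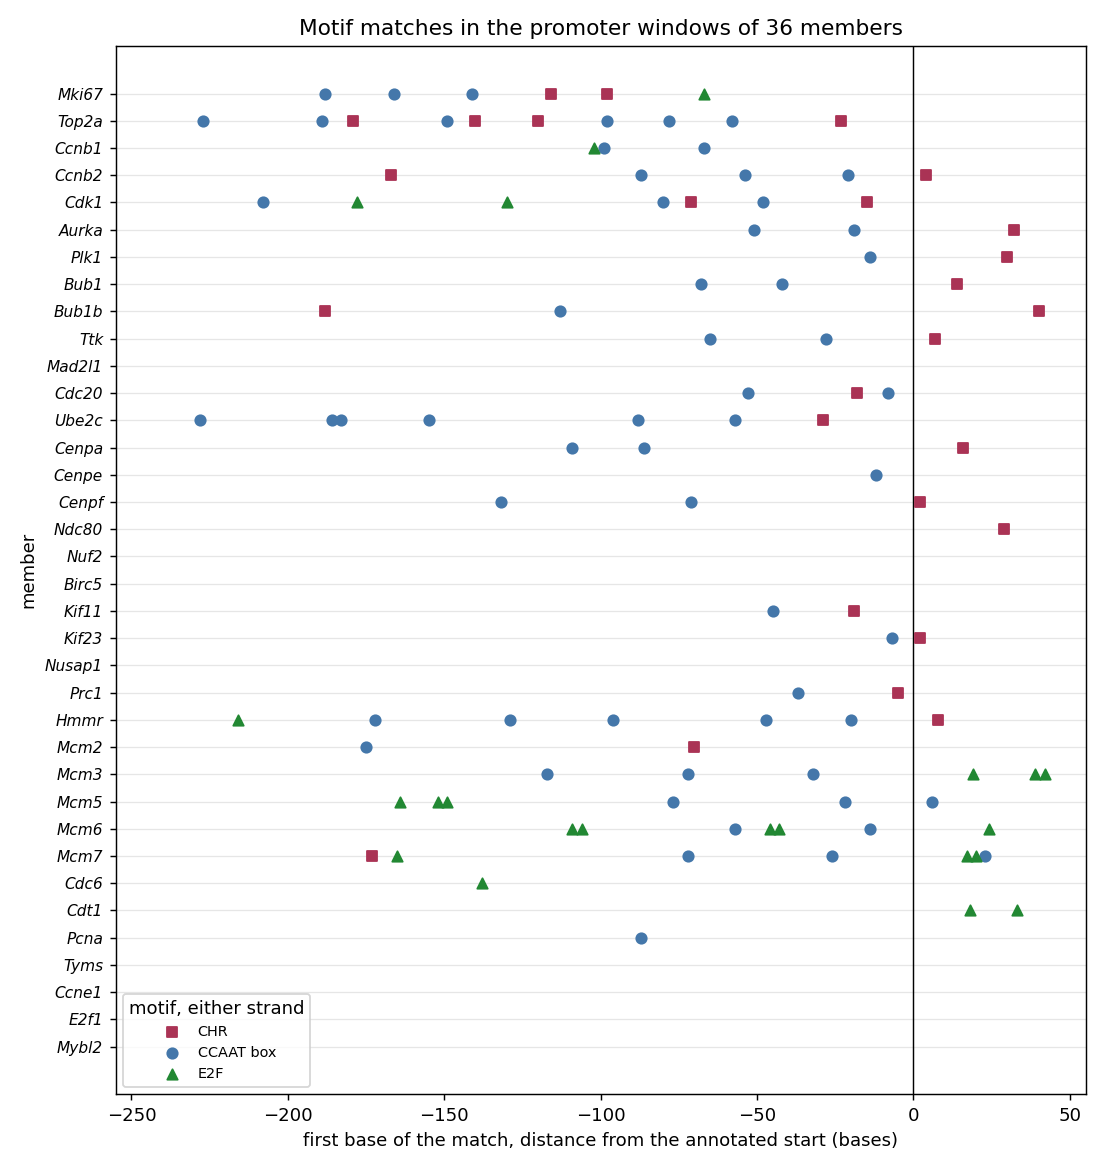
Motif matches on either strand in the promoter windows of 36 members; the x axis is the distance in bases of the first base of each match from the annotated start, and each row is a member. CHR matches (squares) stand in 18 of 24 mitosis members in the upper rows, and E2F matches (triangles) in 6 of 9 replication members below them.

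The calls fell on a few named genes. A gene was called when edgeR's quasi-likelihood test, adjusted over all genes tested, gave a p under 0.05 and the fold was over 1.5 or under 0.67. In AK against NS, 2 of 44 members were higher, Ccna2 and Pcna, where 2.26% of all genes tested were higher, 2.38% lower and 4.64% either. In cSCC against NS, 7 of 44 were higher, the mitosis genes Kif20a, Aurka, Plk1, Cenpa, Cdc20 and Ube2c and the replication gene Mcm3, where 11.7% of all genes were higher, 7.65% lower and 19.3% either. In cSCC against AK, 5 of 44 were higher, Plk1, Aurka, Cdc20, Cenpa and Ube2c, where 16% of all genes were higher, and 1 was lower, Pcna, where 8.34% were, or 24.4% in either direction. No member was lower against NS in either lesion, also at an unadjusted p under 0.05, with DESeq2 and with limma voom. The shares of members that were higher, 4.55%, 15.9% and 11.4% in that order, differ from those of all genes by a few genes or fewer, so these counts are read as results on the named genes and not on the members as a group. These comparisons share their NS, AK or cSCC samples and are not independent of each other.

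Depth and the makeup of the libraries bear on every value. Total counts ran from 775750 in cSCC replicate 20 to 14055206 in AK replicate 10, of which the 44 members took 994 to 20446 counts, or 0.071% to 0.306%. Levels are counts per 1e+06 counts of the library (CPM) with TMM factors, and 3 counts, the limit that a count of 0 allows, equal 0.225 to 3.78 CPM depending on the library. Lung markers summed to 36017 CPM in cSCC replicate 20, with counts for 8 of 8 markers, against 15.4 to 61.8 CPM in all other libraries. Heart muscle markers summed to 58758 CPM in cSCC replicate 21, with counts for 8 of 9, against 11.3 to 164 CPM in the others. Basal keratinocyte markers summed to 17881, 18488, 5412 and 3866 CPM in cSCC replicates 18 to 21, against 5312 to 16334 in NS and 9323 to 14363 in AK, and all 7 of these markers had counts in every one of the 4. Suprabasal keratinocyte markers summed to 49.6 to 1994 CPM in cSCC, against 4948 to 15281 in NS. Haemoglobin took 46.8% of the counts of cSCC replicate 18 and at most 14.3% of any other library. In bulk tissue, fewer dividing cells and less RNA per cell cannot be told apart.

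The 4 cSCC libraries held both the highest and the lowest mean levels of these genes. The mean log2(CPM + 1) of the 28 mitosis members was 5.68, 5.80, 4.27 and 4.05 in cSCC replicates 18 to 21, which put them at ranks 2, 1, 15 and 20 of 20 libraries. NS ran from 4.12 to 5.49 with a median of 4.40, and AK from 4.62 to 5.37 with a median of 5.02. The 11 replication members split the same way, 5.19 and 5.62 in replicates 18 and 19 and 4.21 and 4.38 in replicates 20 and 21, against 4.54 to 4.99 in NS and 4.70 to 5.17 in AK. The low pair are the libraries with lung and heart genes and with the lower basal keratinocyte sums; the values without both are given with each comparison, and the part of these tissues was not otherwise tested. Among NS, replicate 8 stood above the rest in mitosis members at 5.49. The high values of cSCC replicate 18 rest in part on scaling, with a TMM factor of 0.509 against 0.852 to 1.22 in the other libraries. All members took 0.138% of its raw counts, near the NS median of 0.144%. Without haemoglobin the share was 0.259%, against an NS median of 0.145%.

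**Figure D2:**
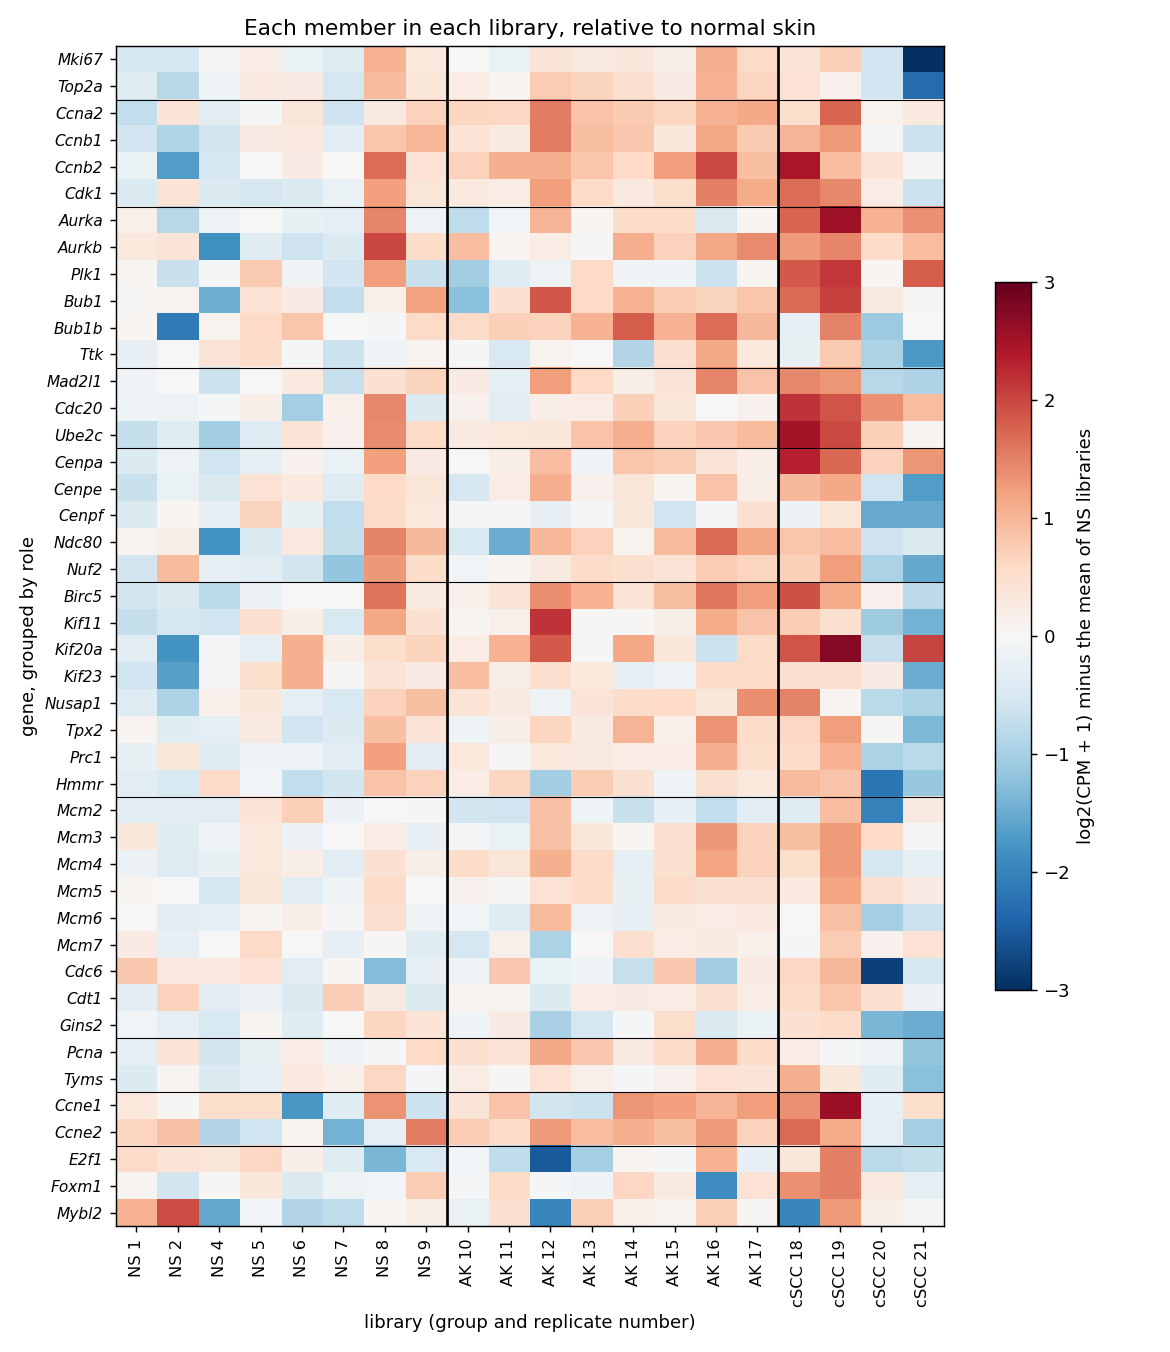
Each member (rows, grouped by role) in each of the 20 libraries (columns), as log2(CPM + 1) minus the mean of the 8 NS libraries, with the color scale ending at -3 and 3. Most rows are red in cSCC 18 and 19 and many are blue in cSCC 20 and 21, Aurka, Cdc20 and Cenpa are red in all 4, and NS 8 is the reddest column of NS in the mitosis rows.

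Per kilobase of exon, the only scale on which levels of different genes are set side by side, Pcna was the most abundant member in NS, with a median of 41.1 CPM per kilobase (range 29.4 to 66.0). Birc5 came next at 15.97 (9.57 to 52.6), Tyms at 14.8 (10.8 to 22.6) and Ccnb2 at 14.8 (4.16 to 48.1), and these neighbours overlap. Mki67 stood at rank 9 of 44 with 11.2 (8.12 to 24.5). Foxm1, Kif20a and Mybl2 lay lowest, at 0.447, 0.605 and 0.620 CPM per kilobase, and each was at 0 counts in at least 1 library. In cSCC the median of Cdc20 reached 43.0 CPM per kilobase, next to 40.3 for Pcna, whereas in NS it had been 12.6.

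The proliferation markers showed the split within cSCC plainly. Mki67, the standard marker of cycling cells, lay at 81.7 CPM at the lowest, 112 at the median and 246 at the highest in NS, and at 102, 146 and 253 in AK. In cSCC replicates 18 to 21 it was 156, 196, 79.6 and 12.2 CPM. The last value, from 74 counts, lies below every other library, while the first pair lie within the range of AK. The log2 difference was 0.27 ± 0.23 (SE) for AK against NS (edgeR adjusted p = 0.472), -0.15 ± 0.51 for cSCC against NS (0.874) and -0.40 ± 0.48 for cSCC against AK (0.573), and none passed. Without cSCC replicates 20 and 21 both cSCC values turned positive, 0.51 ± 0.37 and 0.26 ± 0.30, and still did not pass. Top2a, the topoisomerase that untangles chromosomes before they separate, was 64.6, 122 and 227 CPM in NS (lowest, median, highest), 121, 173 and 240 in AK, and 158, 128, 78.5 and 22.7 in cSCC. Its log2 differences were 0.43 ± 0.22, -0.33 ± 0.43 and -0.74 ± 0.38 in the same order, with adjusted p of 0.228, 0.631 and 0.164.

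Among the mitotic cyclins and their kinase, the values for AK were all positive and 1 of 4 passed. Ccna2, cyclin A2, which acts in both S phase and entry into mitosis, was 13.4, 25.5 and 38.3 CPM in NS and 36.4, 41.6 and 69.4 in AK (lowest, median, highest). The ranges overlap at their ends, with 5 of 8 AK above every NS. It rose by 0.86 ± 0.22 on the log2 scale in AK (edgeR adjusted p = 0.0326). In cSCC it was 34.0, 79.5, 25.0 and 28.6 CPM, where 0.83 ± 0.36 against NS did not pass (0.116). Exons of Ccna2 overlap those of Exosc9 on the other strand over 510 bases, and the sources used here do not say how strand was counted, so the share of reads from each is uncertain.

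Cyclin B1 and Cdk1, the pair that drives entry into mitosis, had log2 differences of 0.68 ± 0.27 and 0.65 ± 0.27 in AK against NS, with adjusted p of 0.131 and 0.147. Ccnb1 was 23.2, 44.3 and 89.2 CPM in NS, 53.3, 78.4 and 132 in AK, and 91.7, 109, 43.2 and 28.3 in cSCC. Cdk1 was 29.0, 33.2 and 98.9 CPM in NS, 48.8, 60.8 and 119 in AK, and 135, 114, 48.9 and 26.1 in cSCC. Against NS the cSCC differences were 0.51 ± 0.41 and 0.88 ± 0.42 (0.410 and 0.161), and against AK -0.14 ± 0.35 and 0.24 ± 0.39 (0.801 and 0.679). Both genes were higher in cSCC replicates 18 and 19 than in 20 and 21. Ccnb2, cyclin B2, had 0.85 ± 0.34, 1.07 ± 0.53 and 0.24 ± 0.40 for AK against NS, cSCC against NS and cSCC against AK, and did not pass (0.131, 0.170 and 0.692). Without cSCC replicates 20 and 21, Cdk1 passed against NS at 1.48 ± 0.40 (adjusted p = 0.0315).

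Of the 6 mitotic kinases, Aurka and Plk1 passed in cSCC against both other groups. Aurka encodes Aurora A, which matures the spindle poles, and lies at chr2:172356190-172370535 (GRCm38). It was 5.21, 8.88 and 29.5 CPM in NS, 5.46, 10.5 and 21.4 in AK, and 36.1, 63.3, 21.6 and 27.3 CPM in cSCC replicates 18 to 21. All 4 cSCC lay above all 8 AK, and all but NS replicate 8 of the NS lay below them. The margin over AK was narrow, 21.6 CPM from 19 counts in cSCC replicate 20 against 21.4 CPM in the highest AK. Aurka rose by 1.77 ± 0.42 against NS (edgeR adjusted p = 0.0111) and by 1.80 ± 0.37 against AK (0.00539), whereas AK and NS differed by 0.01 ± 0.34 (0.984). Plk1, Polo-like kinase 1, which acts from entry into mitosis to cell separation, was low, at 2.32, 4.01 and 11.6 CPM in NS, 1.57, 3.81 and 7.01 in AK, and 18.1, 22.0, 4.55 and 17.7 in cSCC. It rose by 1.73 ± 0.50 against NS (0.0280) and by 2.18 ± 0.46 against AK (0.00541). The value in cSCC replicate 20 rests on 4 counts and lies within NS and AK. Aurkb, Aurora B of the chromosomal passenger complex, was 1.36 to 33.2 CPM in NS (median 7.56), 7.71 to 21.7 in AK (13.9) and 19.4, 22.4, 11.4 and 15.2 in cSCC. Its log2 differences of 0.42 ± 0.44 in AK and 0.82 ± 0.59 in cSCC against NS, and 0.45 ± 0.35 in cSCC against AK, did not pass (0.580, 0.350 and 0.373). The checkpoint kinases Bub1, Bub1b and Ttk passed in no comparison, and their values for cSCC against NS ranged from -0.24 to 1.22. Bub1b had the largest value of any member in AK against NS, 1.04 ± 0.36 (adjusted p = 0.0868), with 5 of 8 AK above every NS.

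Cdc20 and Ube2c, which serve the anaphase-promoting complex, were higher in cSCC against both other groups. Cdc20, which turns the complex on and is itself the target of the spindle checkpoint, lies at chr4:118432901-118437352. It was 11.8, 23.5 and 69.7 CPM in NS, 19.7, 28.2 and 41.9 in AK, and 116, 94.5, 66.0 and 48.6 in cSCC, so that every cSCC lay above every AK and above every NS but replicate 8. Cdc20 rose by 1.58 ± 0.38 against NS (edgeR adjusted p = 0.0126) and by 1.59 ± 0.25 against AK (0.00219). AK and NS differed by 0.02 ± 0.27 (0.968). Replicates 20 and 21, low in most members, lay above every AK here. Ube2c, the ubiquitin-conjugating enzyme of the complex, was 12.9, 25.6 and 75.2 CPM in NS, 33.5, 46.9 and 60.01 in AK, and 160, 111, 45.5 and 28.9 in cSCC. It rose by 1.49 ± 0.48 against NS (0.0419) and by 1.02 ± 0.35 against AK (0.0466), although cSCC replicates 20 and 21 lay within the range of NS and the latter below every AK. Its exons overlap those of Tnnc2, a skeletal muscle gene, over 592 bases on the other strand, and those of Cdc20 overlap Elovl1 over 53. Mad2l1, a checkpoint protein that holds Cdc20 back, passed in no comparison (0.61 ± 0.25, 0.63 ± 0.43 and 0.05 ± 0.45).

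**Figure D3:**
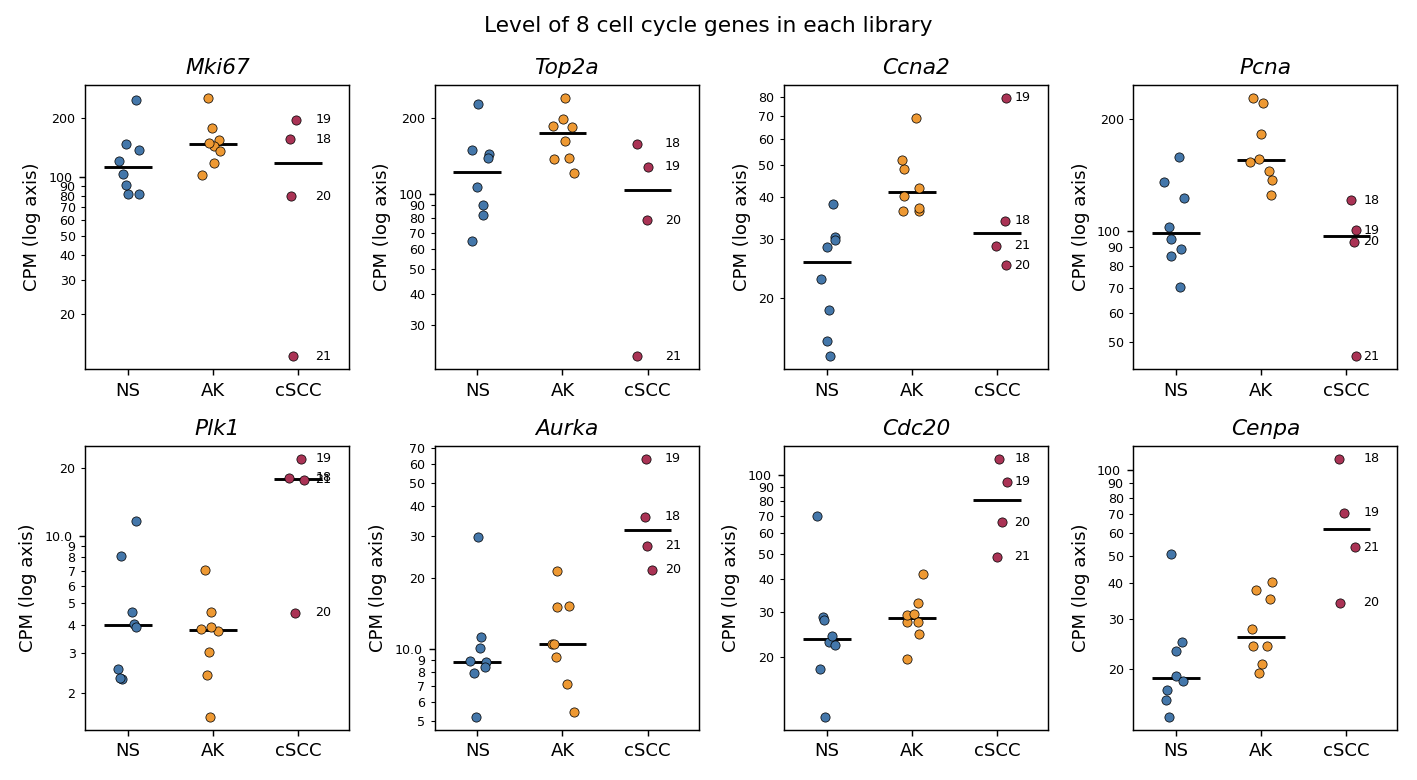
CPM on a log axis of 8 members in every library, with a point for each library, a bar at the group median and replicate numbers beside the cSCC points. Mki67 and Top2a of cSCC replicate 21 lie below all other libraries, while Aurka (by a narrow margin) and Cdc20 of all 4 cSCC lie above all 8 AK, and Pcna of all 4 lies below all 8 AK.

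At the centromere and kinetochore, 1 of 5 members passed. Cenpa, the histone variant that marks where the kinetochore forms, lies at chr5:30666777-30674830 and was 13.6, 18.5 and 50.5 CPM in NS, 19.4, 25.8 and 40.4 in AK, and 110, 70.7, 34.1 and 53.6 in cSCC. It rose by 1.62 ± 0.36 against NS (edgeR adjusted p = 0.00836) and by 1.34 ± 0.29 against AK (0.00668), with 3 of 4 cSCC above every AK and every NS. Ndc80, which binds the microtubule at the outer kinetochore, was 2.37, 12 and 32.3 CPM in NS, 3.25, 20.1 and 37.8 in AK, and 20.1, 21.5, 6.83 and 7.77 in cSCC, with log2 differences of 0.42 ± 0.46, 0.11 ± 0.56 and -0.28 ± 0.55. Cenpe, Cenpf and Nuf2, the other kinetochore members, had differences from -0.50 to 0.34 in cSCC against NS and none passed.

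Of the 8 spindle and cytokinesis members, Kif20a passed, against NS. Kif20a, a kinesin of the central spindle, was at 0 to 6.20 CPM in NS (median 2.62), 1.20 to 11.4 in AK (3.73), and 11.8, 22.0, 1.14 and 13.1 in cSCC, where the third value is 1 count. It rose by 2.14 ± 0.70 against NS (adjusted p = 0.0460), and 1.57 ± 0.59 against AK did not pass (0.0669). Its exons overlap those of Cdc23 over 1271 bases on the other strand. Birc5, survivin, a passenger complex protein also known for blocking cell death, was 32.6, 54.3 and 179 CPM in NS, 64.4, 114 and 177 in AK, and 219, 126, 62.6 and 32.7 in cSCC. Its differences were 0.77 ± 0.31, 0.78 ± 0.49 and 0.03 ± 0.41, with adjusted p of 0.136, 0.283 and 0.966. Kif11, Kif23, Nusap1, Tpx2, Prc1 and Hmmr, which build or bundle the spindle, ranged from -0.12 to 0.39 in cSCC against NS and from -0.72 to -0.08 against AK.

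In DNA replication, Mcm3 and Pcna were the members that passed. Mcm3, a subunit of the MCM helicase, was 17.7, 22.1 and 29.6 CPM in NS, 19.7, 30.7 and 58.1 in AK, and 43.8, 57.6, 35.3 and 21.8 in cSCC. It rose by 0.81 ± 0.27 against NS (edgeR adjusted p = 0.0495, at the threshold). The helicase subunits Mcm2, Mcm4, Mcm5, Mcm6 and Mcm7 did not pass, with values from 0.02 to 0.64 in cSCC against NS. Mcm4 had 0.59 ± 0.19 in AK against NS (0.0701), with 6 of 8 AK above every NS. Mcm2 was 16.7, 20.5 and 36.1 CPM in NS, 12.6, 15.7 and 40.4 in AK, and 16.7, 41.7, 4.55 and 26.1 in cSCC, and Mcm5 was 19.3, 27.3 and 41.1, 23.5, 38.1 and 41.7, and 34.0, 63.7, 38.7 and 32.7. Their log2 differences were -0.32 ± 0.25 and 0.28 ± 0.18 in AK against NS, 0.09 ± 0.41 and 0.64 ± 0.27 in cSCC against NS, and 0.45 ± 0.45 and 0.40 ± 0.25 in cSCC against AK. Cdc6, the loader of the helicase, was 1.83 to 11.3 CPM in NS, 2.40 to 11.3 in AK, and 9.72, 12.7, 0 and 3.80 in cSCC. The 0 in cSCC replicate 20 allows up to 3 counts, and the differences of -0.02 ± 0.36, 0.08 ± 0.63 and 0.15 ± 0.63 did not pass. Neither did Cdt1, which loads the helicase with Cdc6 (0.08 ± 0.25, 0.45 ± 0.39 and 0.42 ± 0.32), or Gins2, a part of the active helicase (-0.17 ± 0.24, -0.17 ± 0.45 and 0.05 ± 0.46).

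Pcna, the sliding clamp of the replication fork and of DNA repair, lies at chr2:132249162-132253314 and was called in both directions. It was 70.6, 98.5 and 158 CPM in NS, 125, 155 and 228 in AK, and 121, 100, 93.3 and 45.8 in cSCC. Pcna rose by 0.63 ± 0.18 in AK against NS (edgeR adjusted p = 0.0427), with 3 of 8 AK above every NS. All 4 cSCC lay below all 8 AK, and it fell by 0.81 ± 0.27 on the log2 scale in cSCC against AK (0.0401). Against NS the cSCC difference was -0.20 ± 0.29 (0.659). Tyms, thymidylate synthase, which makes the thymidine nucleotide, was 65.5, 90.3 and 138 CPM in NS, 86.2, 101 and 121 in AK, and 188, 112, 68.3 and 36.7 in cSCC, with differences of 0.17 ± 0.15, 0.19 ± 0.35 and 0.04 ± 0.31.

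The G1/S cyclins and the transcription factors did not pass in any of the 3 comparisons. Cyclin E1 (Ccne1) was 0.563, 4.90 and 12.2 CPM in NS, 2.34, 9.02 and 12.1 in AK, and 12.5, 29.9, 3.41 and 6.45 in cSCC, with differences of 0.63 ± 0.44, 1.41 ± 0.62 and 0.82 ± 0.55 (adjusted p = 0.387, 0.124 and 0.290). Cyclin E2 (Ccne2) was 8.61, 23.4 and 73.8, 36.4, 47.5 and 61.8, and 82.0, 54.5, 20.5 and 11.7 CPM, with differences of 0.65 ± 0.34, 0.50 ± 0.57 and -0.13 ± 0.39 (0.242, 0.568 and 0.837). Without cSCC replicates 20 and 21 and with GC and length trends removed, Ccne2 was higher in cSCC against AK, at 0.94 ± 0.23 (edgeR adjusted p = 0.0203). E2f1, a driver of replication genes, lay between 0 and 10.8 CPM in NS and AK and at 6.25, 15.4, 2.28 and 2.48 in cSCC. Foxm1, a driver of mitosis genes, lay between 0 and 5.11 CPM in NS and AK and at 8.34, 9.23, 3.41 and 1.98 in cSCC, and Mybl2, which acts with it, between 0 and 14.2 and at 0, 8.35, 3.41 and 2.81. The differences of E2f1 were -0.35 ± 0.45, 0.39 ± 0.59 and 0.77 ± 0.68, those of Foxm1 0.10 ± 0.41, 1.07 ± 0.52 and 1.01 ± 0.63, and those of Mybl2 -0.29 ± 0.56, -0.11 ± 0.89 and 0.23 ± 0.73. The standard errors were as large as many of these differences.

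**Figure D4:**
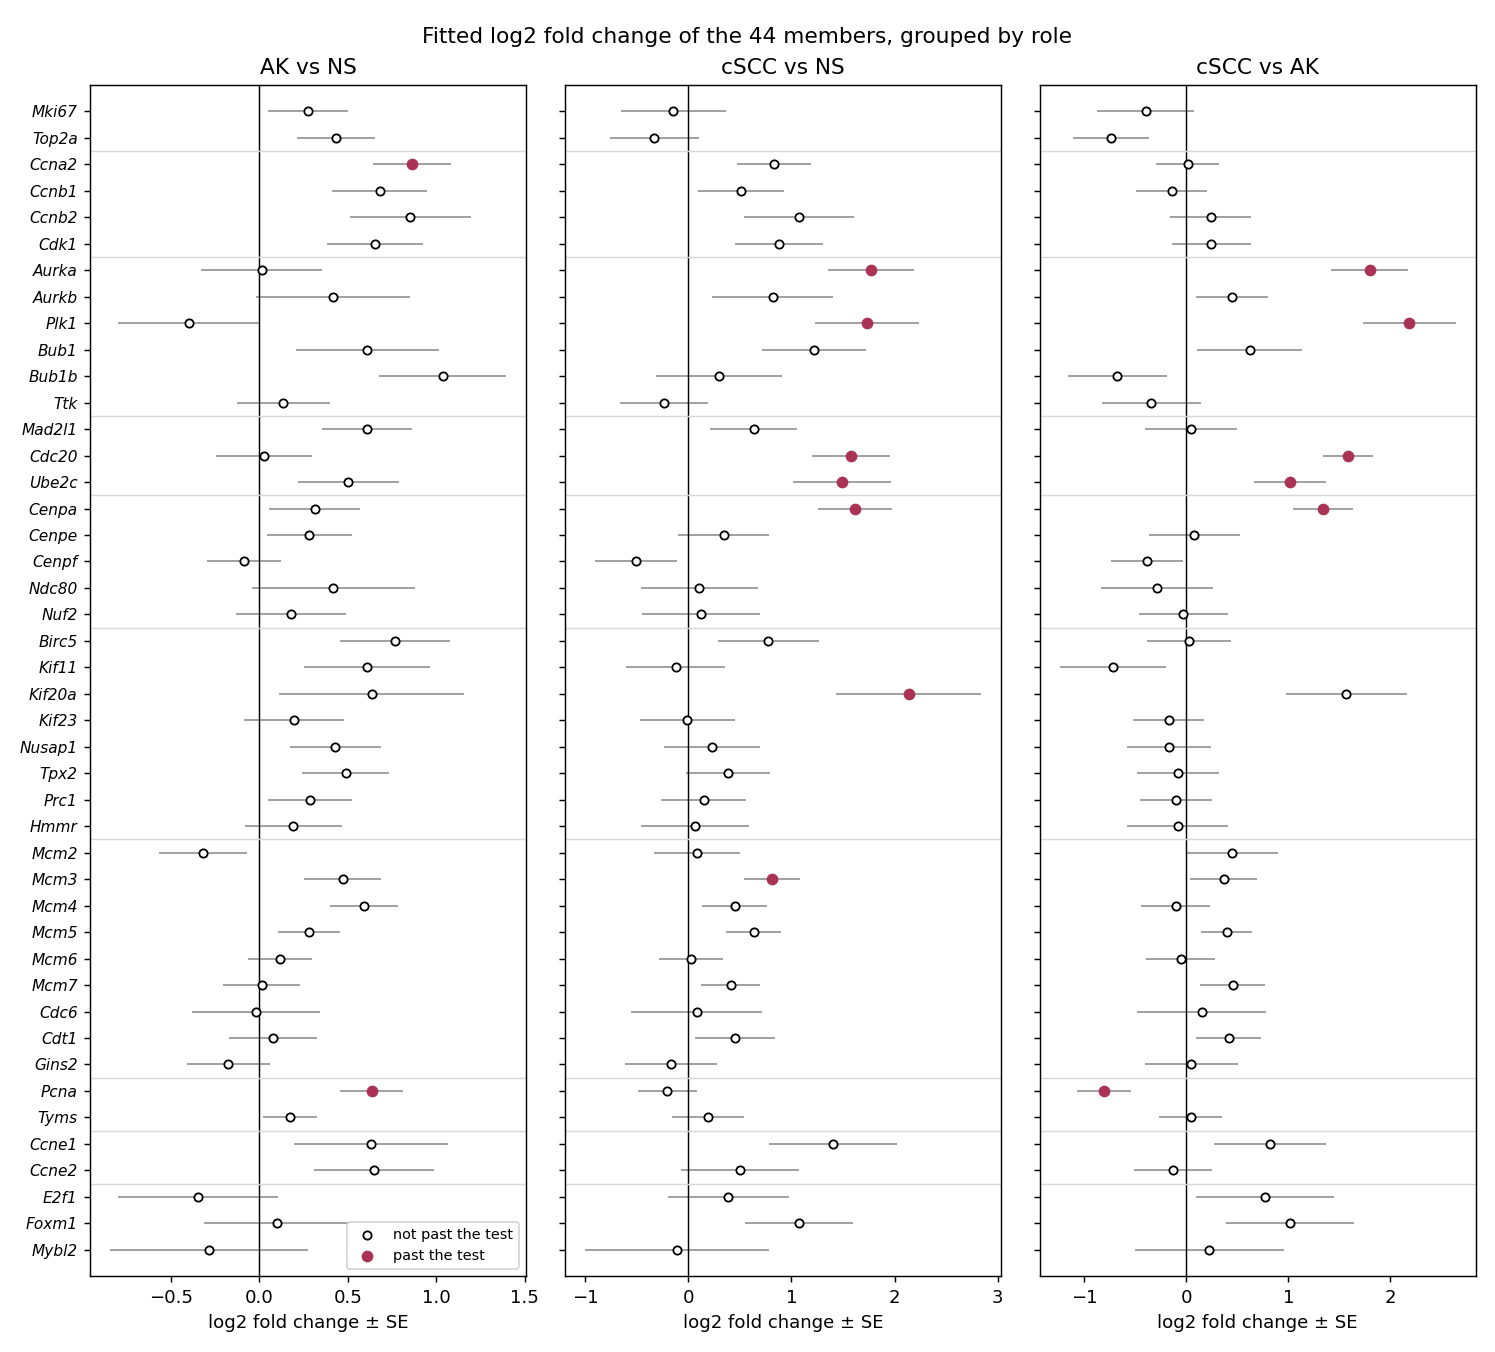
Fitted log2 fold change and its SE (horizontal bars) of the 44 members in the 3 comparisons, in rows grouped by role with lines between roles; filled points passed the test. In AK against NS 37 of 44 points lie above 0 with 2 filled, and in the comparisons with cSCC the filled points above 0 reach from 0.81 to 2.18.

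In AK against NS most members had small positive values. The log2 difference was above 0 for 37 of 44 members (84.1%) against 47.0% of all genes tested, with a median of 0.30 against -0.04. At an unadjusted p under 0.05 with the same fold limit 9 members were higher, against 6.06% of all genes. The count past the adjusted test rested on single libraries. It was 7 without NS replicate 8 (Pcna, Ube2c, Ccna2, Cdk1, Ccnb2, Birc5 and Mcm4), 1 without NS replicate 2, 6 or 7 or AK replicate 15, and 0 without NS replicate 1, 4 or 5 or AK replicate 12, 13, 16 or 17. Of all genes, 3.7% were higher without NS replicate 8, and 0.737% to 2.19% in the fits with 1 or 0 members. The member count was 4 with DESeq2, 5 with limma voom and 0 with all 20 samples in 1 fit. All genes higher were 3.71%, 4.46% and 0.0389% in that order. The 8 AK and 8 NS did not separate for any member, whereas 0.394% of all genes had every AK above and 0.128% every AK below every NS.

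For cSCC against NS the median over the 44 members was 0.40 against 0.14 for all genes, and 35 of 44 were above 0 (79.5% against 56.9%). No member had every cSCC above or below every NS, where 2.7% and 5.73% of all genes did. Cdc20 and Cenpa passed in 13 of 13 other settings and in 12 of 12 fits that left out 1 library, and Aurka in 13 and in 11, the exception being the fit without cSCC replicate 19. Plk1 passed in 9 of the 12, Kif20a and Ube2c in 3 and Mcm3 in 1. The count of 7 fell to 2 without cSCC replicate 19 (Cdc20 and Cenpa), to 4 without cSCC replicate 18 or NS replicate 1, 5, 7 or 9, and to 3 without NS replicate 4. Of all genes, 9.59%, 8.29% to 15% and 8.47% were higher in these fits, in that order. Leaving out cSCC replicates 20 and 21 gave 11 of 44 higher, with Bub1, Mad2l1, Cdk1 and Mcm4 added, where 5.74% of all genes were higher. That fit rests on cSCC replicates 18 and 19 alone, the libraries with the highest mean level of these members. The median was then 0.90 against -0.06 for all genes. With library size alone the calls over all genes moved from 11.7% higher and 7.65% lower to 5.17% and 11%, the median of all genes from 0.14 to -0.17, and 3 members remained higher, Aurka, Cdc20 and Cenpa.

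In cSCC against AK the median over the members was 0.05 against 0.17 for all genes, and 26 of 44 lay above 0 (59.1% against 57.3%). Every cSCC lay above every AK for Aurka and Cdc20, where 3.33% of all genes did so, and below every AK for Pcna, where 6.84% did. For Aurka the nearest values were 21.6 CPM in cSCC and 21.4 CPM in AK. Aurka, Cdc20 and Cenpa passed in 13 of 13 other settings and 12 of 12 fits without 1 library, and Plk1 in 12 and 12. Ube2c passed in 4 and 2. Pcna passed in 8 and 3, and was lost without AK replicate 10, 12, 13, 15, 16 or 17 and without cSCC replicate 19, 20 or 21. Without cSCC replicates 20 and 21 there were 6 of 44 higher, with Kif20a added, and 0 lower, where 6.71% of all genes were higher and 5.9% lower. Here too only cSCC replicates 18 and 19 remained, the libraries with the highest mean level of these members. The median was then 0.65 against -0.0059 for all genes. With library size alone the calls over all genes moved from 16% higher and 8.34% lower to 8.49% and 11.3%, and 4 of the 5 members stayed higher.

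The differences varied with the GC content of the transcript, and in the cSCC comparisons also with its length. Over all genes tested, Spearman's rho between GC content and log2 difference was -0.43 for AK against NS, 0.18 for cSCC against NS and 0.36 for cSCC against AK, and over the 44 members it was -0.40, 0.36 and 0.65. Between transcript length and log2 difference, rho in the same order was 0.04, -0.15 and -0.15 over all genes. Over the members it was -0.10, -0.46 and -0.37. These are descriptions across genes, which share the same libraries and are not replicates. The median log2 difference of the fifth of genes lowest in GC (up to 43.5%) was 0.21 in AK against NS and -0.30 in cSCC against AK, and that of the fifth highest in GC (from 54.7%) was -0.36 and 0.78. Plk1, Cdc20 and Ube2c have 56.0%, 55.6% and 55.5% GC, Aurka 51.4%, Cenpa 48.7%, and Ccna2 and Pcna 46.1% and 45.3%. With the GC trend of each library removed, 0 members passed in AK against NS (Ccna2 adjusted p = 0.0591, Pcna 0.0995), where 0.874% of all genes were higher. With trends of both GC and transcript length removed, Aurka (1.55 ± 0.40, adjusted p = 0.0179), Cdc20 (1.30 ± 0.38, 0.0289), Cenpa (1.63 ± 0.36, 0.00868) and Kif20a (2.12 ± 0.69, 0.0447) still passed against NS. Against AK, Aurka (1.54 ± 0.38, 0.0135), Cdc20 (1.08 ± 0.26, 0.0123), Cenpa (1.37 ± 0.30, 0.00862), Plk1 (1.56 ± 0.45, 0.0275) and Pcna (-0.71 ± 0.19, 0.0197) did, and Pcna was lost with GC alone (0.0688).

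**Figure D5:**
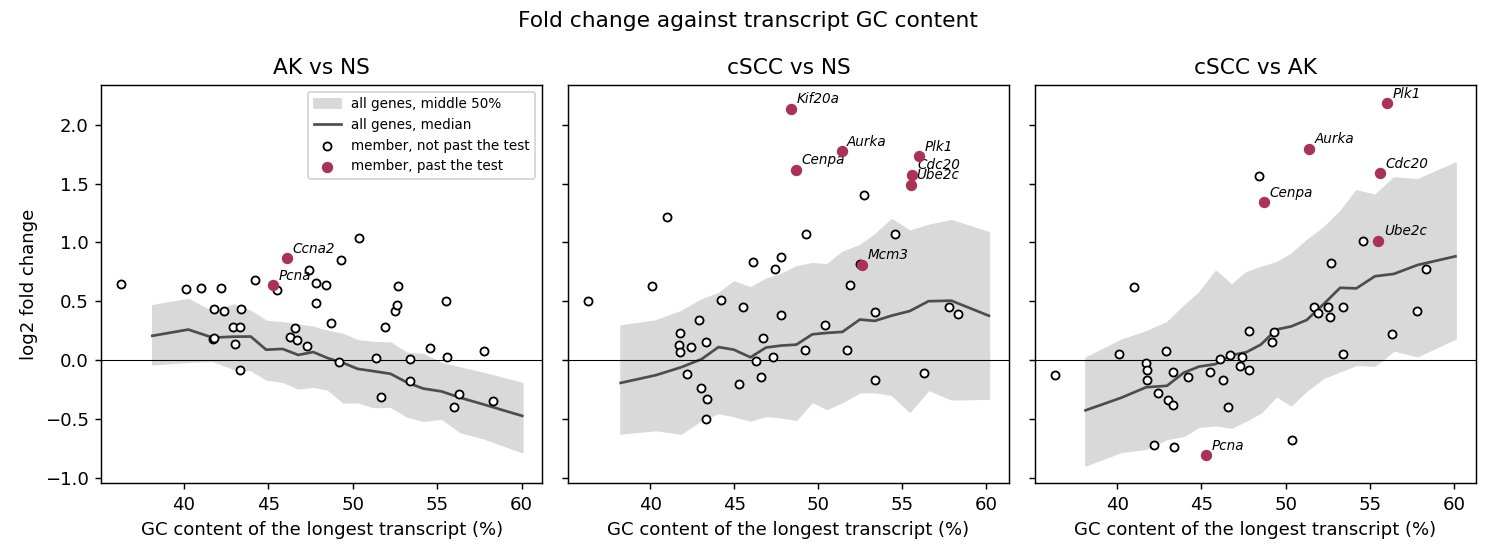
Log2 fold change against the GC content of the longest transcript, with 44 members as points and all genes tested as a line (median in 20 bins of equal size) and a band (middle 50%). The line slopes down in AK against NS and up in cSCC against AK, and Aurka, Cdc20, Cenpa and Plk1 lie above the band in the latter.

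Further genes of the same pathways were taken from lists. The counts below are to be read against the shares of all genes, 2.26% higher in AK against NS, 11.7% in cSCC against NS and 16% in cSCC against AK, and most lie near or under them. Of 71 further mitosis genes, 65 or 66 were tested, and 2 were higher in AK against NS, Cenpl (0.74 ± 0.21) and Ncapg2 (0.71 ± 0.20), the first a centromere protein and the second a condensin subunit. In cSCC against NS 2 were higher, Mad1l1, a checkpoint protein, by 2.94 ± 0.54 (edgeR adjusted p = 0.00376), and the condensin subunit Ncapg by 1.45 ± 0.47 (0.0431). In cSCC against AK Mad1l1 rose by 3.47 ± 0.63 and Mis12, a kinetochore protein, fell by 0.81 ± 0.25 on the log2 scale. Of 49 further replication genes 48 were tested. Rfc3, a subunit of the clamp loader, was higher in AK (0.68 ± 0.17). In cSCC 5 were higher against NS, among them Pold2, a subunit of DNA polymerase delta, by 2.13 ± 0.62, Rrm2, a subunit of ribonucleotide reductase, by 1.91 ± 0.37 and Rpa1, which binds single-stranded DNA, by 1.00 ± 0.30, and 1 was lower, the maintenance methyltransferase Dnmt1, by 0.80 ± 0.27. Against AK 5 were higher, led by Pold2 (2.27 ± 0.66), Chaf1b (1.88 ± 0.50), a histone chaperone, and Rrm2 (1.28 ± 0.35).

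Of 17 E2F, pocket protein and MuvB genes, 0 were called by edgeR in AK against NS, where 5 (29.4%) had an unadjusted p under 0.05, against 24.6% of all genes tested. Against NS 1 was higher in cSCC, the histone-binding protein Rbbp4 (0.76 ± 0.24). Against AK Tfdp2, the partner of E2F factors (1.43 ± 0.49), and Rbbp4 (0.84 ± 0.25) were higher and Rb1, the retinoblastoma gene, fell by 0.96 ± 0.27 on the log2 scale (adjusted p = 0.0219). Of 17 regulators of mitotic entry and exit 16 were tested. Again 0 were called in AK against NS, with 4 (25%) at an unadjusted p under 0.05. Further, 1 (6.25%) was higher in cSCC against NS, Anapc4 (0.72 ± 0.23), and 3 (18.8%) were higher against AK, namely Anapc5 (1.29 ± 0.35), Ube2s (1.21 ± 0.42) and Fzr1 (1.10 ± 0.38).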

How the data were processed

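RNA-seq of 20 skin samples was analysed from raw counts per gene that the authors deposited in 1 table. The submitters' processing notes name Trimmomatic 0.36, HISAT2 2.0.5 and featureCounts 1.5.2, and both mm9 and hg19 as builds, while the study's methods name GRCm38; whether counting used strand is not given in the sources used here. Groups were taken from the sample labels. Each pair of groups was fitted with edgeR 4.0.16 (R 4.3.3; TMM factors, filterByExpr, quasi-likelihood F test, Benjamini-Hochberg adjustment over all genes tested), and SE is the log2 fold change divided by the root of F. A call needed an adjusted p under 0.05 and a fold over 1.5 or under 0.67. CPM used TMM factors over all 20 libraries. Genes given in full were fixed representatives of each role and, in each comparison, the 5 called members per direction with the largest fold change; of each further list, up to 3 called genes per direction. Mcm3, Mad2l1, Ccnb2, Bub1b, Mcm4, Cdt1 and Gins2 were given in addition after their values were seen. Alternatives used DESeq2 1.42.0, limma 3.58.1 and other filters and scalings; removal of GC and length trends was added after seeing the data. Gene coordinates, GC and exon lengths are from the GRCm38 annotation. Scripts were tested on simulated counts. Total counts of 775750 to 14055206 limit the precision of low genes. Across 62 pairs of libraries within groups, chi-square per degree of freedom was at least 11.3, so none of these pairs was a duplicate. The members and lists were chosen with earlier results of these data known.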

Additional observations from a re-analysis of the deposited data

Results flagged for a closer look

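Each group of values was searched for a sample whose gap to its nearest neighbour takes more of the group's range than Dixon's 95% limit allows. Of 150 groups of values, 132 of them of members, 25 held such a sample, and for normally distributed values chance gives about 1 in 20 groups. The search was made on CPM without logs, and all 25 were the highest of their group. The rate of 1 in 20 therefore need not hold here. Among members there were 18, and 10 of these were NS replicate 8, which was the highest of 8 NS in each. Its values were 246 CPM for Mki67 (others at most 148), 73.7 for Ccnb2, 98.9 for Cdk1, 29.5 for Aurka (others at most 11.3), 33.2 for Aurkb, 69.7 for Cdc20 (others at most 28.6), 75.2 for Ube2c, 50.5 for Cenpa, 179 for Birc5 and 85.9 for Prc1. The 10 are genes of mitosis, share a library and are not independent of each other.

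AK replicate 12, the AK library of lowest depth, was highest in Ccna2 at 69.4 CPM, Kif11 at 105, Mcm2 at 40.4 and Mcm6 at 125. AK replicate 16 was highest in Ccnb2 at 91.7 and Prc1 at 78.5 CPM, AK replicate 17 in Nusap1 at 71.5, and cSCC replicate 19 in Ccna2 at 79.5. Haemoglobin took 5.45% of counts in NS replicate 9, 14.3% in AK replicate 14 and 46.8% in cSCC replicate 18. Lung markers summed to 61.8 CPM in AK replicate 12 and 36017 in cSCC replicate 20, and heart muscle markers to 45.7 CPM in NS replicate 8 and 58758 in cSCC replicate 21.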

How the results depend on the processing

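Counts of called members depended on single libraries, on scaling and on the trends of fold change with GC content and transcript length. No paired analysis was possible because the groups share no replicate number and the labels tie no sample to a mouse. For Aurka, Cdc20 and Cenpa in cSCC against AK, and for Cdc20 and Cenpa against NS, every alternative run and every fit without 1 library kept the call. The count of members higher in AK against NS was 2, and became 4 with DESeq2, 5 with limma voom, 1 with library size alone, with upper quartile factors, with no filter or with at least 10 counts in every sample, 0 in a fit of all 20 samples, with the GC trend or with both trends removed, and 9 at an unadjusted p. The shares of all genes higher were 3.71%, 4.46%, 1.14% to 2.7% (settings with 1), 0.0389% to 1.11% (settings with 0) and 6.06%. In cSCC against NS it was 7, and became 3 with library size alone, 4 with both trends removed, 11 without cSCC replicates 20 and 21, 12 without them and with trends removed, and 11 at an unadjusted p. The shares of all genes higher were 11.7% in the reported fit and 5.17%, 11%, 5.74%, 5.88% and 20.2% in these settings, in that order. In cSCC against AK the 5 higher became 11 without those replicates and with trends removed, and the 1 lower became 0 with limma voom, with upper quartile factors, with the GC trend removed, and without those replicates with or without trends. Of all genes, 5.94% were higher in the first of these settings. In the settings with 0 members lower, 4.52% to 7.91% of all genes were lower. The median there went from 0.05 to 0.65 without those replicates and 0.66 with trends removed too. Leaving out 1 library gave 0 to 7, 2 to 6 and 4 to 6 members higher in the 3 comparisons in that order, 0 to 2 lower in cSCC against AK and 0 in the others, and medians of 0.26 to 0.52, 0.16 to 0.66 and -0.29 to 0.27. Of all genes, 0.737% to 3.7%, 6.97% to 15% and 6.9% to 18.3% were higher in these fits. In cSCC against AK, 6.48% to 13.1% of all genes were lower. The cause of these differences was not tested. Signs were followed only for the fixed representatives of each role and for the called members. Those that turned were of members that did not pass in the reported fit. Of these, Ccne2 passed after turning, in cSCC against AK without cSCC replicates 20 and 21 and with trends removed (0.94, edgeR adjusted p = 0.0203). Nuf2, which was not among those followed, was -0.027 in the reported fit and was called higher in that same setting. In AK against NS, the sign turned with both trends removed E2f1 (0.072), and with the GC trend removed E2f1 (0.036). It also turned with limma voom Cdc6 (0.091) and Mybl2 (0.43). In cSCC against NS, the sign turned with both trends removed Mki67 (0.25) and Mcm2 (-0.061), and with limma voom Mki67 (0.043), Mcm2 (-0.099), Cdc6 (-0.47) and Mybl2 (0.45). It also turned with library size alone Ndc80 (-0.21), Mcm2 (-0.16), Tyms (-0.23) and Cdc6 (-0.29), and with the length trend removed Mki67 (0.24). It also turned without cSCC 20 and 21 Mki67 (0.51), Top2a (0.22), Pcna (0.069) and Mybl2 (0.10), and without both and with trends removed Mki67 (0.95) and Top2a (0.34). In cSCC against AK, the sign turned with both trends removed Ndc80 (0.082), Ccne2 (0.32) and Mybl2 (-0.31), and with the GC trend removed Ccnb1 (0.13), Ndc80 (0.11), Ccne2 (0.46) and Mybl2 (-0.26). It also turned with limma voom Ccnb1 (0.11), Ndc80 (0.17) and Cdc6 (-0.57), and with all 20 samples in 1 fit Ccna2 (-0.11), Birc5 (-0.062) and Tyms (-0.055). It also turned with haemoglobin left out Ccna2 (-0.042), and with library size alone Ccna2 (-0.14), Cdk1 (-0.058), Birc5 (-0.35), Tyms (-0.32) and Cdc6 (-0.16). It also turned with no filter on low counts Ccna2 (-0.17), Birc5 (-0.10), Tyms (-0.10) and Cdc6 (-0.023), and with the length trend removed Ccna2 (-0.14) and Birc5 (-0.0094). It also turned without cSCC 20 and 21 Mki67 (0.26), Ccnb1 (0.41), Ndc80 (0.26) and Ccne2 (0.55), and without both and with trends removed Mki67 (0.71), Top2a (0.18), Ccnb1 (0.39), Ndc80 (0.53), Ccne2 (0.94) and Mybl2 (-0.0016). With 1 library left out, values of uncalled representatives ran across 0 in AK against NS for Cdc6 -0.18 to 0.15, Foxm1 -0.0025 to 0.29 and Mybl2 -0.45 to 0.30. The remaining uncalled members were not followed in these fits. With 1 library left out, values of uncalled representatives ran across 0 in cSCC against NS for Ccne2 -0.052 to 0.83, Cdc6 -0.45 to 0.43, E2f1 -0.48 to 0.70, Mcm2 -0.38 to 0.39, Mki67 -0.58 to 0.23, Mybl2 -0.92 to 0.48, Ndc80 -0.18 to 0.39, Pcna -0.40 to 0.014, Top2a -0.69 to 0.0037 and Tyms -0.31 to 0.47. With 1 library left out, values of uncalled representatives ran across 0 in cSCC against AK for Birc5 -0.59 to 0.27, Ccna2 -0.50 to 0.18, Ccnb1 -0.47 to 0.049, Ccne2 -0.71 to 0.13, Cdc6 -0.38 to 0.50, Cdk1 -0.17 to 0.47, E2f1 -0.097 to 1.10, Mybl2 -0.57 to 0.53 and Tyms -0.49 to 0.25.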

Other observations

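The ratio of Aurka to Mki67 counts was chosen after the values had been seen, and is given with no test. It was 0.0605 to 0.137 in the 8 NS, NS replicate 8 included at 0.120, and 0.0284 to 0.138 in the 8 AK. In cSCC replicates 18 to 21 it was 0.232, 0.324, 0.271 and 2.23, so that all 4 lay above the other 16 libraries. The longest transcripts of Aurka and Mki67 differ in length (1905 and 10061 bases) and GC content (51.4% and 46.6%). Differences between groups varied with both, so comparing libraries does not remove them, and their part in the ratio was not tested. Ratios of Cdc20 and Cenpa to Mki67 were at least 0.483 and 0.362 in cSCC, against at most 0.306 and 0.260 elsewhere. Aurka, Cdc20 and Cenpa were taken because they were called higher in cSCC, so these ratios add no separate support. The share of all genes whose ratio to Mki67 separates in this way was not computed. In cSCC replicate 21 the CPM of Mki67 was the lowest of all libraries, which raises every ratio there. That of Plk1 was 0.0571 in cSCC replicate 20, within the range of NS (0.0159 to 0.0590).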
